A study of Homo sapiens with 6 samples.

Results

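The mitosis genes are 42 genes whose products carry a cell from late G2 through chromosome segregation and division. They were chosen by gene symbol from the 36601 genes of the files, and all 42 were found and passed the low-count filter. By role they comprised 13 kinases, cyclins and other regulators, 7 kinetochore and centromere proteins, and 11 spindle motors and microtubule-binding proteins. The rest were 5 cytokinesis proteins and 6 proteins of chromosome structure and the nuclear envelope. The 13 regulators included CDC20 and UBE2C, which act with the anaphase-promoting complex. They were measured in SK-N-BE(2)-C cells, an established human neuroblastoma line, by Seq-Well S3, a single-cell RNA-seq method in which a cell and a barcoded bead share a well. The 6 libraries formed 3 groups of 2: cells given DMSO, the solvent control; cells given TSA, the usual abbreviation of trichostatin A, which blocks the enzymatic activity of histone deacetylases; and cells given E6R. The title of the series names an HDAC complex inhibitor that is not enzymatic. Doses, times and the structure of E6R are not given in the sources used here. Nothing in the labels says that the libraries came from separate cultures, so p-values measure only the spread between these libraries.

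Entry into mitosis is driven by CDK1 bound to a B-type cyclin, which the phosphatase CDC25C activates. The spindle checkpoint kinases BUB1 and TTK hold back the anaphase-promoting complex until kinetochores, the protein plates on the centromeres, have caught spindle microtubules. The complex, with its activator CDC20 and its ubiquitin-conjugating enzyme UBE2C, then marks cyclin B for destruction, and anillin (ANLN) and the exchange factor ECT2 organise the cleavage furrow. Transcripts of these genes build up in G2 and are low in G1, so in a dividing line they are found in a fraction of the cells.

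Library facts that bear on the values were as follows. The cells kept per library, those with at least 500 genes and at most 20% mitochondrial UMIs, numbered 1861 and 3132 in the DMSO libraries, 2467 and 3292 in those given TSA, and 2891 and 3946 in those given E6R. UMIs, the unique molecular identifiers that count transcripts, came to 32049 and 38386 for the 42 genes in the DMSO sums, 95857 and 90115 under TSA, and 116199 and 209043 under E6R. Pairs of libraries shared between 11 and 58 cell barcodes. Mitochondrial UMIs made up 5.83% and 6.2% under DMSO, 6.08% and 9.71% under TSA, and 1.55% and 1.51% under E6R, and the part of this difference in the results below was not tested. The line's adrenergic markers were present in every library (0 of 8 without UMIs), with a summed level of 2064 to 2437 CPM under DMSO (CPM are UMIs divided by TMM-scaled library size), 2552 to 2825 under TSA and 2158 to 3023 under E6R. The 8 mesenchymal markers summed to 749.7 to 1142 CPM under DMSO, 2192 to 3288 under TSA and 1289 to 1941 under E6R. Most of that sum was VIM, an intermediate filament gene, with 977 and 696 CPM under DMSO, 2840.1 and 1759.6 under TSA, and 1652 and 1242 under E6R. The collagen gene COL1A2 went the other way under TSA, with 0.85 and 5.36 CPM under DMSO and 0.228 and 0.174 under TSA. The 6 markers of blood, endothelium, epithelium and liver stayed between 1.09 and 29.4 CPM in sum, with CD3E at 0 in 5 of 6 libraries. The part of these marker levels in the results was not tested.

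Promoters of many mitosis genes are known to carry the cell cycle homology region, bound by the MuvB complexes that repress these genes in G1 and activate them in G2, together with CCAAT boxes bound by NF-Y. RefSeq promoter windows (GRCh38.p14, 250 bases before to 50 after each start) were matched for 36 of the 42 genes. The letters TTTGAA or TTCGAA, on either strand, lay in a window of 27 of these 36 genes (75%), against 19.5% of the 27305 genes of the table. The letters CCAAT, on either strand, lay in 25 of 36 (69.4%), against 39.7%. Both stood in the windows of 22 genes (61.1%), against 7.85% of all genes, where both had to lie in the same window. The MYCN-type E-box CACGTG lay in 4 of 36 (ANLN, CCNB1, CENPE and CENPF; 11.1%), against 8.77%. Of the genes that TSA raised, 7 of 9 matched held TTTGAA or TTCGAA. Of those that it lowered, 3 of 4 did, and of those not called, 17 of 23. For CCAAT the counts were 6 of 9, 4 of 4 and 15 of 23. Differences between these small sets were not tested. A match is a description of the letters and not a measured site. To let the main patterns be read in sequence, 8 promoters are printed from 200 bases before to 30 after the start, 5′ to 3′ on the gene's strand, with these 2 motifs in capitals on either strand. CCNB1 and CCNB2 are the B cyclins that parted under TSA, CDC20 and MKI67 did not pass any test, BUB1, ANLN and TACC3 rose under TSA, and TMPO fell. For TMPO the first of 2 listed starts was used.
CCNB1, chr5:69166950-69167179, plus strand: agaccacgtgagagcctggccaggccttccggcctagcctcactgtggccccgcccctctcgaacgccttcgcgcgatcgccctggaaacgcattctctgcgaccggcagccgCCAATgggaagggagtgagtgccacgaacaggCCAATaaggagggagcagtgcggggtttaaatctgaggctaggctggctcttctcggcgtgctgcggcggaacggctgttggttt
CCNB2, chr15:59104946-59105175, plus strand: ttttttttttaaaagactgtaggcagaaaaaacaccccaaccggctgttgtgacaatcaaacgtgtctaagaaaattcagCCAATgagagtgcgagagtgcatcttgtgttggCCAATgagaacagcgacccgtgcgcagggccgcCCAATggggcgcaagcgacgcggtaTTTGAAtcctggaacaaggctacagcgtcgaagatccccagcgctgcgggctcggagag
CDC20, chr1:43358781-43359010, plus strand: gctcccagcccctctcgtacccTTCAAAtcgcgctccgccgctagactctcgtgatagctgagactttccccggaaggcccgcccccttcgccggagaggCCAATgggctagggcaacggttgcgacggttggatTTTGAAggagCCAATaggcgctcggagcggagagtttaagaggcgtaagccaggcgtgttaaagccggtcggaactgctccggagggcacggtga
BUB1, chr2:110678034-110678263, minus strand: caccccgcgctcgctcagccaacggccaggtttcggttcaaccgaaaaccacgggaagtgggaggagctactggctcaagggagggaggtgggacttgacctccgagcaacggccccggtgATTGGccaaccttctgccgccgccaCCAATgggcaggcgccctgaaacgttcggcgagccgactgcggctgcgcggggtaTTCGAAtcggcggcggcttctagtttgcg
ANLN, chr7:36389662-36389891, plus strand: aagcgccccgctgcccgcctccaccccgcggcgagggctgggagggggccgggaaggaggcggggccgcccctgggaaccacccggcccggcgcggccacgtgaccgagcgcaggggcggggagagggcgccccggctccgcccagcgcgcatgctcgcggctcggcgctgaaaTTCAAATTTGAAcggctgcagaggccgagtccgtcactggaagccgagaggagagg
MKI67, chr10:128126394-128126623, minus strand: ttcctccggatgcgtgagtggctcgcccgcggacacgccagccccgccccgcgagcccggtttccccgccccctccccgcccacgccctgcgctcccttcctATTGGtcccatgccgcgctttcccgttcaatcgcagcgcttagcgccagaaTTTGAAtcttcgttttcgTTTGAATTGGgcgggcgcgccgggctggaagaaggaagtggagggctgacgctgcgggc
TMPO, chr12:98515373-98515602, plus strand: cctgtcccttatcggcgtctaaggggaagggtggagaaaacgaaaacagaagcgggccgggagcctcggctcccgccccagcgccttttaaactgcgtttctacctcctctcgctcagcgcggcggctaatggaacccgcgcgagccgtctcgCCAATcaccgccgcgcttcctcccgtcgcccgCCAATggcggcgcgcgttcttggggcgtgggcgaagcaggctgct
TACC3, chr4:1720431-1720660, plus strand: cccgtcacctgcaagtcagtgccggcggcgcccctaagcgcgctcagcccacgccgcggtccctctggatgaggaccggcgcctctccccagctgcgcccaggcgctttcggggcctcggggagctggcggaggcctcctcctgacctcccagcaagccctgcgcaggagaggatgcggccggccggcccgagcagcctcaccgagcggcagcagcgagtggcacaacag
In these printed windows CCNB2 held 3 CCAAT boxes and 1 TTTGAA at -29 from the start, whereas CCNB1 held 2 CCAAT boxes at -87 and -55 and neither TTTGAA nor TTCGAA. BUB1 held 2 CCAAT boxes and a TTCGAA that began at position 2 of the transcript. ANLN held a pair of adjoining matches at -26 and -20, and in MKI67 the TTTGAA at -29 overlapped an inverted CCAAT. TMPO held only CCAAT boxes, at -47 and -15. The TACC3 window held neither motif, but its RefSeq start lies 859 bases upstream of the GENCODE gene start given below, so it does not cover that start. For the other 7 genes the starts differ by 26 (CDC20) to 140 (CCNB1) bases.

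TSA against DMSO asked which mitosis genes an inhibitor of HDAC enzymatic activity changed. The genes split: 10 rose, 6 fell and 26 did not pass. The rises included the checkpoint kinase BUB1, the spindle protein TACC3, the furrow protein ANLN and the CDK1 activator CDC25C, and the falls included the histone chaperone ANP32E, cyclin B2, lamina-associated TMPO and the spindle-pole kinase AURKA. UMIs summed per library were tested with the quasi-likelihood test of edgeR, with p-values adjusted over all 16763 tested genes and a threshold of 0.05. The called share of the members was 38.1%, against 29.7% of all tested genes (16.2% higher and 13.5% lower), so the number of calls was not far from the background. The median log2 fold change was 0.18 over the members and -0.01 over all tested genes. The members' fitted log2 values ranged from -1.38 to 1.42. With total counts in place of TMM scaling, which moved the median of all genes to -0.32, 6 members were called higher and 9 lower. The 16 calls became 6 when DMSO replicate 1 was left out and 7 when DMSO replicate 2 was. They became 4 when TSA replicate 1 was left out and 2 when TSA replicate 2 was. The called share of all tested genes fell as well, to 14%, 15%, 9.84% and 7.79% in that order. Both TSA libraries lay above both DMSO libraries for 21 members (50%, against 36.7% of all tested genes) and below both for 13 (31%, against 34.6%).

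**Figure D1:**
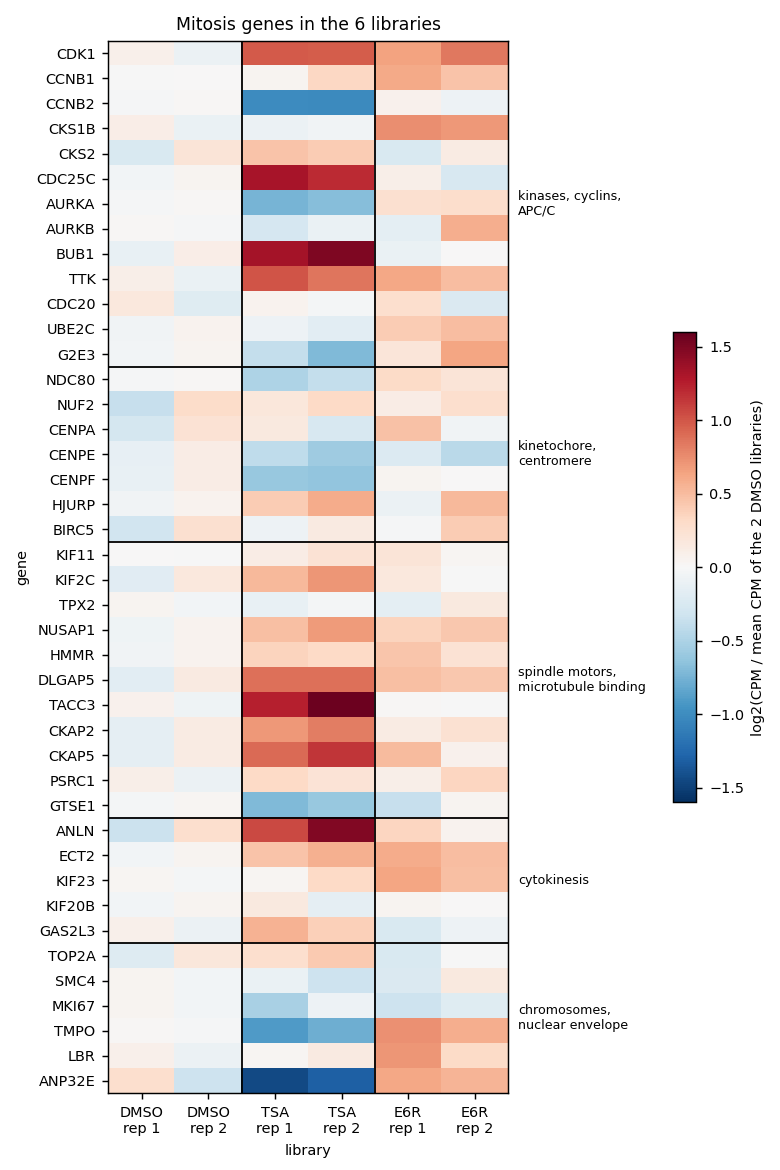
Each row is a mitosis gene, grouped by role, and each column a library; the colour is the log2 ratio of the library's CPM to the mean CPM of the 2 DMSO libraries. Under TSA the rows part into red (BUB1, TACC3, CDC25C, ANLN) and blue (ANP32E, CCNB2, TMPO, AURKA), while under E6R the colours are paler, within 0.75 as a fitted log2 fold change.

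Among the kinases, cyclins and other regulators, 4 of 13 rose under TSA (30.8%, against 16.2% of all tested genes). Another 2 fell (15.4%, against 13.5%) and 7 did not pass. BUB1 (ENSG00000169679; GRCh38 chromosome 2, 110637698 to 110678114, minus strand), the kinase that recruits checkpoint proteins to kinetochores, had 42.7 and 49.9 CPM in the DMSO libraries, 117 and 130.3 under TSA, and 43 and 46.3 under E6R.  The TSA libraries stood well above the other 4, which overlapped. The log2 fold change under TSA was 1.41 (SE 0.19, adjusted p = 0.00242), and BUB1 was called in all 15 alternatives tried. TTK, the kinase that starts checkpoint signalling, went from 30.8 ± 3 CPM (SD, n = 2) to 58.8 ± 4.04 (adjusted p = 0.0128). CDC25C (ENSG00000158402; chromosome 5, 138285265 to 138338355, minus strand, overlapping FAM53C on the other strand) had 13.4 and 14.2 CPM under DMSO, 34.5 and 31.5 under TSA, and 14.7 and 11.6 under E6R. Its log2 fold change under TSA was 1.26 (SE 0.25, adjusted p = 0.00924), the E6R libraries lying at the DMSO level.

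CDK1 (ENSG00000170312; chromosome 10, 60778331 to 60794852, plus strand), the kinase that starts mitosis, had 56.1 and 49.5 CPM under DMSO, 104 and 103 under TSA, and 82.8 and 95 under E6R. Both treated groups lay above DMSO. The log2 fold change under TSA was 0.98 (SE 0.19, adjusted p = 0.00799). AURKA (ENSG00000087586; chromosome 20, 56369389 to 56392337, minus strand), which builds the spindle poles, had 102 and 104 CPM under DMSO, 61.5 and 64.2 under TSA, and 123 and 125 under E6R. Under TSA it fell by 0.71 in log2 units (SE 0.17, adjusted p = 0.0189). Its relative AURKB, the kinase of the chromosomal passenger complex, had 82.5 ± 1.43 CPM under DMSO and 72.4 ± 5.94 under TSA (adjusted p = 0.606). Within each library, where no scaling enters, the UMI ratio of AURKA to AURKB was 1.23 and 1.27 under DMSO, 0.902 and 0.838 under TSA, and 1.66 and 1.01 under E6R.

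The B cyclins did not move together. CCNB1 (ENSG00000134057; chromosome 5, 69167010 to 69178245, plus strand) had 102 and 103 CPM under DMSO, 106 and 129 under TSA, and 156 and 141 under E6R. The TSA difference of 0.19 (SE 0.19) did not pass (adjusted p = 0.465), and its sign turned to -0.12 with total counts. CCNB2 (ENSG00000157456; chromosome 15, 59105078 to 59125045, plus strand, overlapping AC092757.2 on the same strand and AC092757.3 on the other) had 71.6 and 73.1 CPM under DMSO, 36.1 and 35.8 under TSA, and 76.2 and 68.4 under E6R. It fell under TSA by 1.01 (SE 0.18, adjusted p = 0.00664) and lost its call only without TSA replicate 1 or without TSA replicate 2 (highest adjusted p 0.075). The UMI ratio of CCNB2 to CCNB1 within a library was 0.702 and 0.707 under DMSO, 0.339 and 0.278 under TSA, and 0.489 and 0.484 under E6R, so the groups did not overlap in it. With 2 libraries against 2, an exact two-sided permutation test of such a ratio cannot go below p = 0.333, so it was described only.

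The remaining members of this role did not pass under TSA. CDC20, the activator that starts anaphase (ENSG00000117399; chromosome 1, 43358955 to 43363203, plus strand), had 61.6 and 47.6 CPM under DMSO, 57 and 53.4 under TSA, and 65.8 and 46.5 under E6R. Its 3 groups overlapped, with a TSA log2 difference of 0.02 (SE 0.24, adjusted p = 0.969) whose sign turned to -0.30 with total counts. UBE2C went from 73.9 ± 3.9 to 67.9 ± 2.75 CPM, and the ubiquitin ligase G2E3 from 36.7 ± 1.4 to 25.3 ± 4.04 (adjusted p = 0.132). The close paralogs CKS1B and CKS2, small CDK-binding subunits between which the counting could divide reads, had UMI ratios of CKS2 to CKS1B of 0.873 and 1.39 under DMSO, 1.64 and 1.52 under TSA, and 0.557 and 0.755 under E6R. The ratio was higher in the TSA libraries and lower in the E6R libraries than in either DMSO library, and neither gene passed for TSA.

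At the kinetochore and centromere, 1 of 7 members fell under TSA (14.3%, against 13.5% of all tested genes) and 6 did not pass. CENPF, a large protein of the outer kinetochore, had 739 ± 86.1 CPM under DMSO and 481 ± 5.88 under TSA. It fell by 0.62 in log2 units (SE 0.19, adjusted p = 0.0446) and kept its call in 9 of 15 alternatives. The kinetochore kinesin CENPE had 183 and 217 CPM under DMSO and 151 and 135 under TSA (adjusted p = 0.0992), and passed with total counts (adjusted p = 0.0242). NDC80 and NUF2 bind microtubules as a dimer. NDC80 had 37 ± 0.667 CPM under DMSO and 27.3 ± 1.6 under TSA (adjusted p = 0.136), and NUF2 had 72.1 ± 23.3 and 86 ± 5.59 (adjusted p = 0.46). The centromeric histone CENPA and its chaperone HJURP had 17.8 ± 4.51 and 73.9 ± 4.19 CPM under DMSO, and 17.4 ± 3.55 and 105 ± 9.64 under TSA. Survivin (BIRC5) had 287 ± 76.8 and 294 ± 33 CPM.

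Of the 11 spindle motors and microtubule-binding proteins, 5 rose under TSA (45.5%, against 16.2% of all tested genes). In this role 1 fell (9.09%, against 13.5%) and 5 did not pass. TACC3 (ENSG00000013810; chromosome 4, 1721490 to 1745176, plus strand), which cross-links spindle microtubules together with CKAP5 and clathrin, had 136 and 123 CPM under DMSO, 307 and 385 under TSA, and 131 and 129 under E6R. The TSA libraries stood apart and the DMSO and E6R libraries overlapped. Its log2 fold change under TSA was 1.42 (SE 0.20, adjusted p = 0.00271), and it was called in all 15 alternatives. Its partner CKAP5, a microtubule polymerase, rose from 114 ± 15 to 235 ± 27.6 CPM (adjusted p = 0.0131). DLGAP5, which stabilises microtubules near the chromosomes, rose from 119 ± 18.1 to 219.7 ± 0.396 CPM (adjusted p = 0.0126). CKAP2 and the microtubule bundler NUSAP1 rose by 0.75 and 0.59 on the log2 scale. With total counts NUSAP1, CKAP2, DLGAP5 and TTK lost their calls. Among the 15 alternatives NUSAP1 kept its call in 5, CKAP2 in 8, TTK in 10 and DLGAP5 in 11. GTSE1 fell by 0.65 (adjusted p = 0.0451). The kinesin KIF2C, which takes microtubules apart, had 48.6 ± 8.35 and 74.3 ± 6.58 CPM (adjusted p = 0.0607). It passed with the replicate number as a block (0.0492), in DESeq2 (0.0499) and without either E6R library (lowest adjusted p 0.0382). The pole-separating kinesin KIF11, the AURKA activator TPX2, HMMR and PSRC1 lay between -0.07 and 0.33 on the log2 scale. Within a library, the UMI ratio of TACC3 to TPX2 was 0.272 and 0.263 under DMSO, 0.692 and 0.81 under TSA, and 0.302 and 0.239 under E6R.

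Of the 5 cytokinesis genes, 1 (ANLN) rose under TSA (20%, against 16.2% of all tested genes) and 4 did not pass. ANLN (ENSG00000011426; chromosome 7, 36389806 to 36453791, plus strand, overlapping KIAA0895 on the other strand), which links actin, septins and the cleavage furrow, had 85.6 and 131 CPM under DMSO, 225 and 302 under TSA, and 137 and 113 under E6R. The fold change was 2.43 (log2 1.28, SE 0.27, adjusted p = 0.0112). ECT2, the exchange factor for RhoA, had 72.1 ± 3.18 CPM under DMSO and 103 ± 5.28 under TSA (adjusted p = 0.0627). The kinesin KIF23 of the central spindle, KIF20B and GAS2L3 had fitted log2 values of 0.18, 0.01 and 0.47.

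Among the 6 genes of chromosome structure and the nuclear envelope, 2 fell under TSA (33.3%, against 13.5% of all tested genes). The other 4 did not pass. ANP32E (ENSG00000143401; chromosome 1, 150218417 to 150236156, minus strand), the chaperone that removes the histone variant H2A.Z, had 198 and 131 CPM under DMSO, 60.5 and 66.3 under TSA, and 253 and 239 under E6R. The 3 groups did not overlap, with TSA lowest and E6R highest. Its log2 fold change under TSA was -1.38 (SE 0.24, adjusted p = 0.00534). TMPO (ENSG00000120802; chromosome 12, 98515512 to 98550379, plus strand, overlapping TMPO-AS1 on the other strand) encodes the LAP2 proteins, which tie lamins to chromatin. It had 164 and 159.9 CPM under DMSO, 86.2 and 93.9 under TSA, and 269 and 242 under E6R, in the same order. It fell under TSA by 0.85 (SE 0.18, adjusted p = 0.0124). The proliferation marker MKI67 (ENSG00000148773; chromosome 10, 128096659 to 128126385, minus strand), which coats mitotic chromosomes, had 738 and 694 CPM under DMSO, 501 and 675 under TSA, and 567 and 626 under E6R (TSA log2 -0.28, SE 0.22, adjusted p = 0.346). TOP2A (ENSG00000131747; chromosome 17, 40388516 to 40417950, minus strand), the topoisomerase that disentangles chromatids, had 850.2 and 1118 CPM under DMSO, 1181 and 1311 under TSA, and 829 and 979 under E6R (TSA log2 0.34, SE 0.22, adjusted p = 0.278). The condensin subunit SMC4 and the lamin B receptor LBR had TSA log2 values of -0.22 and 0.09.

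**Figure D2:**
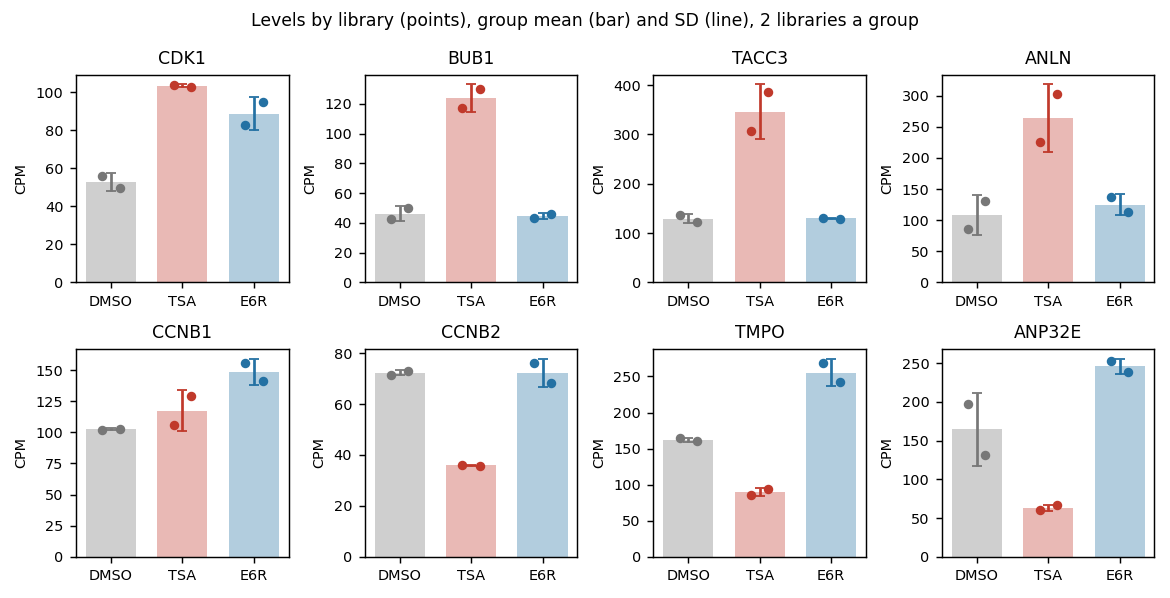
Levels (CPM, from 0) of 8 mitosis genes in each library (points), with the group mean (bar) and the SD of 2 libraries (line). TSA libraries lie above both other groups for CDK1, BUB1, TACC3 and ANLN and below them for CCNB2, TMPO and ANP32E. The TSA levels of CCNB2 are 36.1 and 35.8 CPM.

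E6R against DMSO asked the same of E6R. No mitosis gene passed, 0 of 42, where 0 of all 16763 tested genes (0%) passed in edgeR. At an unadjusted p under 0.05 there were 11 members, all with higher values under E6R (26.2%), against 17.4% of all tested genes (8.04% with higher and 9.34% with lower values). DESeq2 called 3 members, CDK1, CKS1B and TMPO, and the same 3 were called by edgeR without the low-count filter. Over all genes, edgeR without that filter called 1095 of 31532 (3.47%). DESeq2 called 431 of the 36601 genes in the files (1.18%). That total includes genes without UMIs, so 1.18% is not a share of tested genes. Fitted values were above 0 for 32 of 42 members (76.2%, against 52% of all tested genes), with a median of 0.22 against 0.03 over all. With total counts the median was 0.08 against -0.10 over all. In cells thinned at random to 1000 UMIs it was 0.10 against 0.01. Both E6R libraries lay above both DMSO libraries for 18 members (42.9%, against 24.6% of all tested genes) and below both for 2 (4.76%, against 22.7%), CENPE and MKI67. E6R and TSA were set against the same DMSO libraries, so their differences are not independent.

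CDK1 had the largest fitted value under E6R, 0.75 (SE 0.19, adjusted p = 0.205, and 0.0219 in DESeq2). CKS1B (ENSG00000173207; chromosome 1, 154974653 to 154979249, plus strand) had 137 and 118 CPM under DMSO and 214 and 206 under E6R, with a log2 value of 0.72 (SE 0.18, adjusted p = 0.205). TMPO followed at 0.66 (SE 0.18, adjusted p = 0.205). ECT2 and KIF23 had 0.55 (SE 0.18, adjusted p = 0.218) and 0.55 (SE 0.20, adjusted p = 0.234), and CCNB1 had 0.53 (SE 0.19, adjusted p = 0.231). AURKA, TOP2A, MKI67 and CDC20 had log2 values of 0.27 (SE 0.17), -0.12 (SE 0.22), -0.26 (SE 0.22) and 0.04 (SE 0.24). Their adjusted p were 0.457, 0.808, 0.558 and 0.948. BUB1, TACC3 and CDC25C, which rose under TSA, had -0.05 (SE 0.19), 0.01 (SE 0.20) and -0.07 (SE 0.25) under E6R. By role, the unadjusted p was under 0.05 for 5 of 13 kinases and cyclins, 0 of 7 kinetochore genes and 1 of 11 spindle genes. It was also under 0.05 for 2 of 5 cytokinesis genes and 3 of 6 genes of chromosome structure and envelope. Over all tested genes the share was 17.4%.

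**Figure D3:**
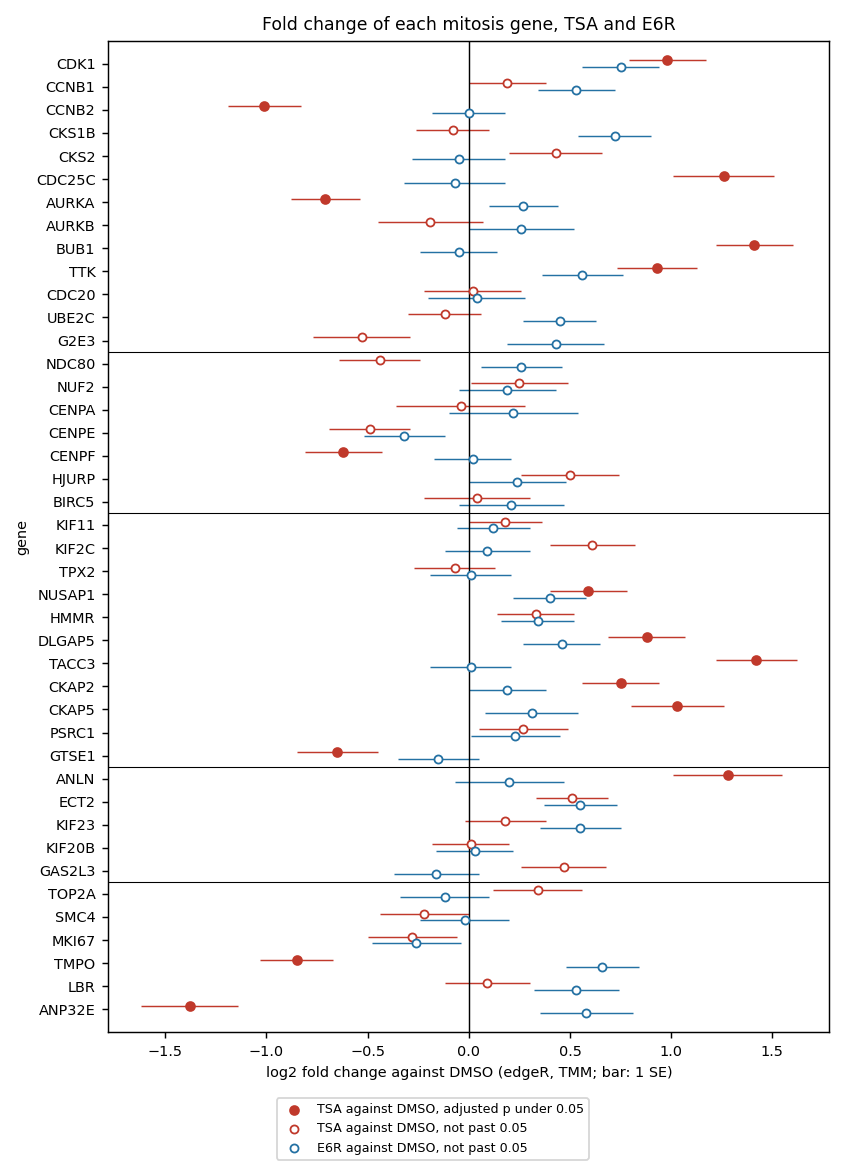
Log2 fold change against DMSO for each mitosis gene under TSA (red) and E6R (blue), with bars of 1 SE; filled points have an adjusted p under 0.05 and rules separate the roles. The 16 filled points are all TSA values, from -1.38 (ANP32E) to 1.42 (TACC3), and the E6R values lie between -0.32 and 0.75.

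The treatments were then compared with each other. Relative to TSA, 9 mitosis genes were higher under E6R, 7 were lower and 26 did not pass, a called share of 38.1%, against 38.2% of all tested genes (18.7% higher and 19.5% lower). ANP32E was 3.88-fold higher under E6R (log2 1.96, SE 0.24, adjusted p = 0.00101) and TMPO 2.83-fold higher (SE 0.18 in log2, adjusted p = 0.00102). CCNB2 and AURKA were also higher, by 1.01 (SE 0.18, adjusted p = 0.00434) and 0.98 (SE 0.17, adjusted p = 0.00392). BUB1 had -1.47 (SE 0.19, adjusted p = 0.00123) and TACC3 -1.41 (SE 0.20, adjusted p = 0.00171). CKS1B, UBE2C, G2E3, NDC80 and CENPF completed the higher genes, and CDC25C, ANLN, CKAP5, GAS2L3 and CKAP2 the lower. ANP32E, TMPO, BUB1, TACC3, AURKA and CDC25C passed in all 15 alternatives. CKAP5 passed in only 5 of them, and GAS2L3 and CKAP2 in 2 each. CDK1, which lay above DMSO under both treatments, did not differ past the threshold (-0.22, SE 0.18, adjusted p = 0.36). CCNB1, CDC20, MKI67 and TOP2A had 0.34 (SE 0.19), 0.03 (SE 0.24), 0.02 (SE 0.22) and -0.46 (SE 0.22), with adjusted p of 0.189, 0.942, 0.946 and 0.136. Of the 16 members called here, 11 were also called for TSA against DMSO, which shares the TSA libraries. With total counts the split was 11 higher and 4 lower, and without TSA replicate 1, TSA replicate 2 or E6R replicate 2 there were 8, 6 and 10 calls, where 17.7%, 14.4% and 35.2% of all tested genes were called. The 7 lower calls became 3 to 5 without any single library, the DMSO libraries included.

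Other genes of mitosis, from a list of 69 such as PLK1, KIF20A and the condensin subunits, also held rises and falls. Under TSA, 13 of 69 rose (18.8%, against 16.2% of all tested genes) and 12 fell (17.4%, against 13.5%), with a median of 0.09. These shares were near the background. The largest rises were in CDCA2 (1.75), the phosphatase CDKN3 (1.43) and the centrosomal kinase NEK2 (1.34), and the largest falls in DEPDC1 (-1.59), lamin B1 (LMNB1, -1.26) and the mitotic kinase PLK1 (-1.21), as log2 fold changes. PLK1 had 121 and 126 CPM under DMSO, 51 and 55.5 under TSA, and 127 and 152 under E6R. Under E6R 0 of 69 passed, with 11 at an unadjusted p under 0.05 (15.9%, all with higher values, against 8.04% of all tested genes) and a median of 0.28. In the 28 S phase genes, which precede the mitosis genes in the cycle, the E6R median was 0.68, with 21 of 28 at an unadjusted p under 0.05 (75%, all with higher values) and 0 past the threshold. Under TSA 7 of 28 S phase genes rose (25%) and 2 fell (7.14%). Whether the 3 lists differed from each other was not tested.

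The level per cell was described in cells thinned at random to 1000 UMIs each, which left out shallower cells, 674 and 1450 under DMSO, 615 and 503 under TSA, and 692 and 1718 under E6R. The mean number of mitosis UMIs per cell was 7.4 and 8.11 under DMSO, 6.22 and 6.45 under TSA, and 7.4 and 8.42 under E6R. The TSA libraries lay lowest. In the unthinned sums, the mitosis share of all UMIs was 0.762% and 0.801% under DMSO, 0.671% and 0.677% under TSA, again the lowest, and 0.736% and 0.798% under E6R. These means and shares use total counts, without TMM scaling, and the most abundant members weigh most in them. The order of the groups depends on that choice. The members' median log2 value under TSA was 0.18 with TMM scaling and -0.14 with total counts. Cells with at least 10 mitosis UMIs made up 29.3% (95% Wilson interval 26.8 to 32) and 33.1% (30.9 to 35.4) in the DMSO libraries. The share was 20.4% (18.6 to 22.3) and 16.5% (15.2 to 18) under TSA, and 26.9% (25.1 to 28.8) and 34.7% (32.7 to 36.7) under E6R. The intervals cover counting error only. The class is a range and not a cell type: 8 or 9 UMIs were held by 124 to 478 cells per library, and 10 or 11 by 93 to 272. Both TSA libraries were below both DMSO libraries at 10 and at 20 UMIs, but at 17 UMIs DMSO replicate 2 (2.73%) was below TSA replicate 1 (2.81%). At 5 UMIs the groups overlapped, at 58.6% and 83.4% under DMSO and 59.6% and 68.6% under TSA.

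**Figure D4:**
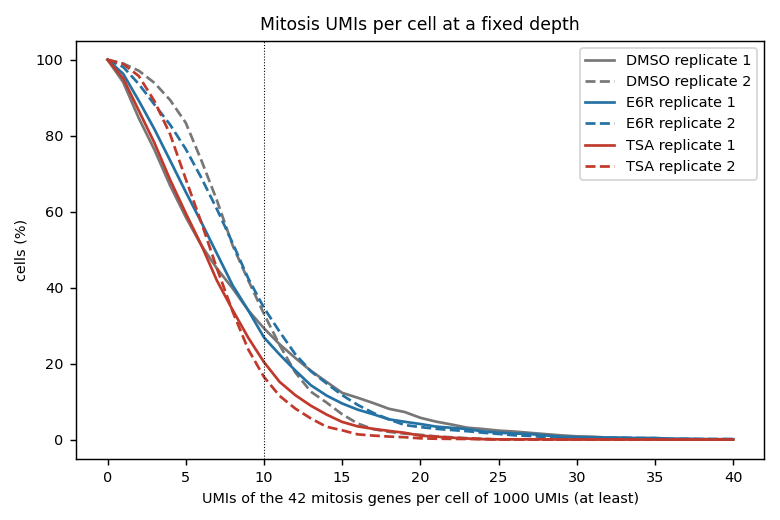
Share of cells (%) holding at least the number of mitosis UMIs on the x axis, among cells thinned to 1000 UMIs; solid lines are replicate 1 and dashed lines replicate 2. The TSA curves are lowest from 10 UMIs (dotted line) to 16, DMSO replicate 2 meets TSA replicate 1 at 17, and the dashed DMSO and TSA curves drop more steeply than the solid ones.

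The libraries differed in how unevenly the cells carried these transcripts. The variance of mitosis UMIs per cell over their mean, which is 1 for pure counting noise, was 5.51 in DMSO replicate 1 and 1.95 in DMSO replicate 2. It was 3.11 and 1.85 under TSA and 4.45 and 3.71 under E6R. Cells with no mitosis UMI made up 5.9% of DMSO replicate 1 and 0.951% of DMSO replicate 2. Cells were then ranked, for each gene, by their UMIs of the other members, and the gene's UMIs in the top 20% were set against those in the bottom 20%. All 42 genes had more UMIs in the top cells over the 6 libraries together, 34 of them in each of 6 libraries and 8 in 5. The ratio over all libraries ran from 1.57 for CKS1B to 5.53 for HMMR, a spindle protein. ANP32E (1.58), CKS2 (1.62), G2E3 (1.78) and CKAP5 (1.88) came next from below. CENPA (5.46, from 71 and 13 UMIs), CENPE (4.74), BUB1 (4.18) and CENPF (3.89) came next from above. These pooled ratios mix libraries whose median ratio ran from 1.62 (DMSO replicate 2) to 6.14 (DMSO replicate 1, over the 25 members with enough UMIs). TOP2A had 531 UMIs in the top cells and 41 in the bottom cells of DMSO replicate 1, and 574 and 285 in DMSO replicate 2. MKI67 had a ratio of 13.1 in DMSO replicate 1 and 1.69 in DMSO replicate 2, 7.53 and 1.57 under TSA, and 7 and 3.96 under E6R. Replicate 2 of DMSO and of TSA thus held these transcripts far more evenly across cells. Barcodes under 500 genes carried mitosis UMIs at 0.71% and 0.768% under DMSO, 0.587% and 0.594% under TSA, and 0.774% and 0.84% under E6R, close to the share in cells. No cells known to lack these transcripts were set apart, so a background of free RNA was not estimated from the cells. Its part was not tested.

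**Figure D5:**
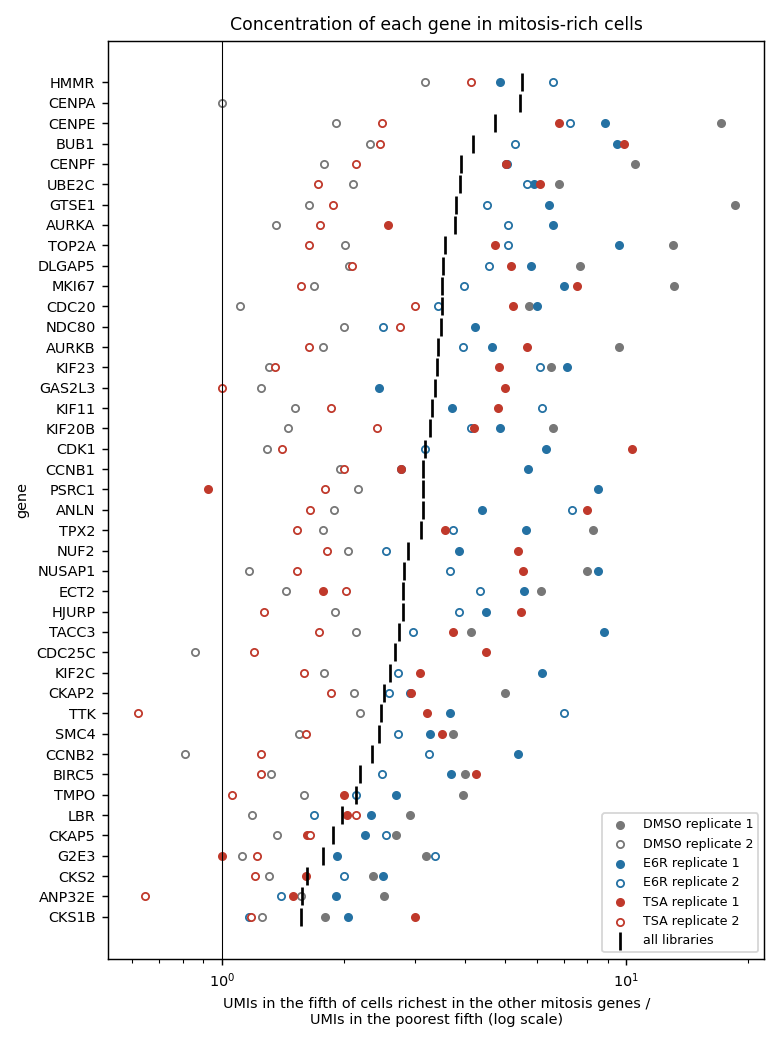
For each mitosis gene, UMIs in the 20% of cells richest in the other mitosis genes over UMIs in the poorest 20% (log axis), by library (points; values need at least 4 UMIs below) and over all libraries (bars). HMMR, CENPE and BUB1 lie high and CKS1B and ANP32E low, and the open DMSO and TSA points (replicate 2) lie left of the filled ones for most genes.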

How the data were processed

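The deposited matrices hold whole-number UMI counts per gene and barcode, not normalized. STARsolo 2.7.9a and GRCh38 are named in the submitters' processing notes; annotation, strand rule and barcode choice are not given in the sources used here. Kept barcodes (17589 cells) had 500 or more genes and no more than 20% mitochondrial UMIs, and their UMIs were summed per library. Doublets were not called, and the 5% of cells richest in UMIs were left out as an alternative. Library sums ranged from 4206366 to 26180262 UMIs.

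The test was edgeR 4.0.16 (R 4.3.3, quasi-likelihood, TMM, filterByExpr, group only, all 6 libraries, Benjamini-Hochberg at 0.05); the common biological coefficient of variation was 0.288. The scripts were tested on simulated data. DESeq2 1.42.0 and 14 further settings were tried. Positions are from GENCODE 29 (GRCh38). The members and lists were chosen with earlier results of these data known. Full statistics are given per contrast for CDK1, CCNB1, CDC20, AURKA, MKI67, TOP2A and the 6 members of smallest adjusted p; of other lists the 3 largest called changes in each direction could be named.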

Additional observations from a re-analysis of the deposited data

Results flagged for a closer look

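Barcodes under 500 genes were left out of the main setting, and those with at least 300 genes entered an alternative. In the barcodes under 500 genes the mitosis share of UMIs was 0.774% and 0.84% under E6R. It was 0.71% and 0.768% under DMSO, lower than in either E6R library. Within the kept cells the E6R and DMSO shares overlapped.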

How the results depend on the processing

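Of the members called in a contrast, none changed sign in any of the 15 alternatives, 1 of which (leaving out barcodes shared between libraries) was chosen after seeing the data. Under TSA, the 10 higher calls became 6 with total counts only and 6 with cells thinned to 1000 UMIs. Leaving out single libraries gave 2 to 16 calls, 2 to 11 higher and 0 to 5 lower; a lone library in a group was taken to vary like the others. For E6R against DMSO, 3 members were called, all higher, with DESeq2 and 3 without the low-count filter. For E6R against TSA, thinned cells gave 9 calls, 5 higher and 4 lower. The 7 lower calls became 4 with total counts only, without the low-count filter, without the 5% of cells with most UMIs, and without mitochondrial and ribosomal protein genes. Leaving out single libraries gave 6 to 15 calls, 3 to 10 higher and 3 to 5 lower. Thinning used fewer UMIs, left out cells under 1000 UMIs and gave each remaining cell the same weight. Leaving out a library used fewer samples. What changed the calls was not tested for any setting. With the replicate number as a block, 17 members were called for TSA (KIF2C added), 0 for E6R and 16 for E6R against TSA. The replicate deviations of DMSO correlated with those of TSA at 0.242 and of E6R at 0.564, and those of TSA with E6R at 0.166, over 7515 genes; with 2 numbers and no shared batch in the labels, this pairing was not taken as given. The DMSO sums were the shallowest and limit the low-count members most: CDC25C had 63 and 74 UMIs there.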
